A study of Drosophila melanogaster with 12 samples.

Results

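In the adult Drosophila midgut, 109 of 15473 transcripts (0.704%) moved in opposite directions when Hey was knocked down by RNAi in enterocytes (ECs) and in enteroblasts (EBs). They were chosen on the differences between group means: a change of at least 0.8 log2 units one way in guts and at least 0.8 the other way in EBs, with no Hey RNAi array overlapping a control array in either. Of these, 46 (0.297% of all transcripts) were higher in Hey RNAi guts and lower in Hey RNAi EBs, and 63 (0.407%) were lower in Hey RNAi guts and higher in Hey RNAi EBs. Because these differences selected the transcripts, they are given as a description and were not tested.

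Hey is a basic helix-loop-helix transcription factor of the HES-related family, whose members act downstream of Notch in many tissues. In the fly midgut, EBs are progenitors that arise from intestinal stem cells and mature into ECs, the large polyploid cells that absorb nutrients. HES-related factors mostly act as repressors, and Notch signalling in EBs is known to steer them towards the EC fate.

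The study compared knockdown and control in both sample types, whole guts and purified EBs. There were 3 arrays for each of 4 groups of adult females, described as independent biological replicates. Control guts carried MyoIA-Gal4 (Myo-GAL4), an EC driver, with UAS-GFP, and Hey RNAi guts carried the same driver with a UAS-Hey RNAi transgene. RNA of both came from the whole gut and not from sorted ECs, although the labels call the samples EC. Control EBs carried dHey-Gal4, a driver made from Hey's own regulatory sequence and active mostly but not only in EBs, with UAS-GFP, and Hey RNAi EBs carried it with UAS-dHey RNAi. EBs were isolated on magnetic beads through a membrane-bound CD8-GFP that both EB groups carried, and by the study's account the share of labelled cells varied between preparations, which are not matched to these arrays. All flies were raised at 18 °C and moved to 29 °C for 2 days at 2 to 4 days of age per the labels. This shift frees MyoIA-Gal4 from its temperature-sensitive repressor Gal80. The cell isolation methods name no Gal80 for the EB flies, so their knockdown may not have been limited to the 2 days. The methods add a further stay at 18 °C for the EB flies, so EB and gut flies may have differed in age. In these bulk samples, fewer cells of a type and less RNA per cell cannot be told apart.

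Each value is the log2 of the deposited intensity of a transcript, after the 12 arrays were brought to one distribution by quantile normalization. A difference of 1 is therefore 2-fold, and levels of different transcripts were read only as ranks within an array, since probes differ in brightness. The medians of the deposited intensities were between 491 and 878 by array. The files and the reference tables paired 9 of the 15473 transcript identifiers with a gene symbol and none of the 109, so these are described by identifier, level and pattern. Hey itself was not among the 9, and its knockdown could not be checked by its own transcript. Of the lists of EC, progenitor, enteroendocrine, muscle and other markers, only LanA, a laminin chain listed among progenitor markers, was paired. LanA was higher in EBs, by 2.31 ± 0.15 log2 units (SE) over all 6 EB against all 6 gut arrays (limma, adjusted p = 9.62e-07). Its mean was 14.2 in control EBs and 12.9 in Hey RNAi EBs, a difference of -1.31, beside -0.32 in guts. Whether this reflects the make-up of the EB preparations was not tested. The named transcript nearest to the opposite pattern was Uba1, the ubiquitin-activating enzyme, which differed by 0.84 in guts and by -0.68 in EBs and so fell short of the limit in EBs.

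Opposite movement was the minority pattern among transcripts that moved in both sample types. Under the same limits, 286 transcripts (1.85%) were higher and 140 (0.905%) were lower in both Hey RNAi guts and Hey RNAi EBs. Taken by sample type, 891 transcripts (5.76%) were higher and 861 (5.56%) lower in Hey RNAi guts, against 1626 (10.5%) higher and 1834 (11.9%) lower in Hey RNAi EBs. Of the 891 gut rises, 46 (5.16%) met the opposite limit in EBs and 286 (32.1%) the same one. Of the 861 gut falls, 63 (7.32%) were higher in Hey RNAi EBs and 140 (16.3%) lower. Seen from the EBs, the oppositely moved transcripts were 2.51% of the 1834 that fell and 3.87% of the 1626 that rose. Arrays of both genotypes were apart in both sample types, whatever the direction and size, for 2405 transcripts (15.5%).

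**Figure D1:**
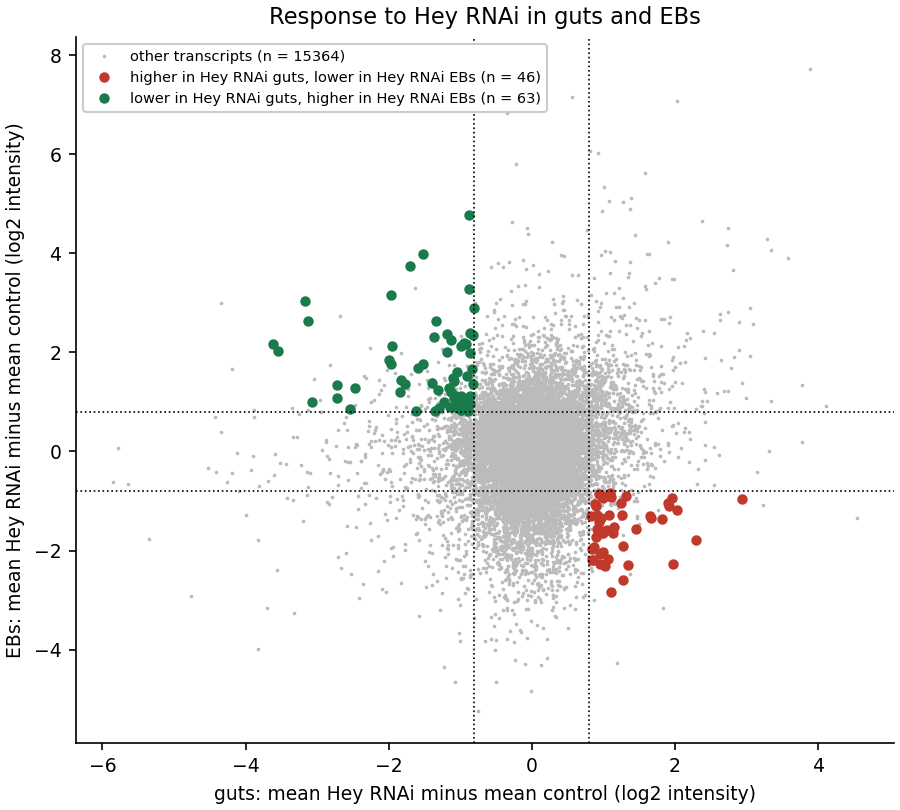
Each point is 1 of 15473 transcripts, with the mean Hey RNAi minus mean control difference in guts on the x axis and in EBs on the y axis (log2 intensity), and dotted lines at the limits of 0.8 either way. The 46 red and 63 green points occupy the lower right and upper left corners. Grey points beyond the lines are transcripts that passed the limit only in guts or only in EBs, whose arrays overlapped or that moved the same way.

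The transcripts higher in Hey RNAi guts and lower in Hey RNAi EBs were mostly dim. Their median level was 6.74 in control guts, 8.08 in Hey RNAi guts, 7.93 in control EBs and 6.08 in Hey RNAi EBs, against 9.32 to 9.45 for all transcripts. The typical transcript of this set thus outranked 26.8% of all transcripts in control guts, 40.06% in Hey RNAi guts, 39.19% in control EBs and 16.45% in Hey RNAi EBs. In Hey RNAi EBs, 14 of the 46 lay among the dimmest 10% of transcripts. Such low values may be close to the background of the array, which was not measured here. In control guts, only 4 of the 46 were above the level of the median transcript. Differences ran from 0.84 to 2.94 in guts (median 1.07) and from -2.83 to -0.83 in EBs (median -1.48). The change was larger in EBs for 30 of the 46, and 23 changed at least 2-fold in both.

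The 63 transcripts lower in Hey RNAi guts and higher in Hey RNAi EBs were bright in control guts. Their median level was 10.70 there, above 61.35% of all transcripts, and 46 of the 63 exceeded the median transcript. It was 9.11 in Hey RNAi guts, 7.68 in control EBs and 9.65 in Hey RNAi EBs. The 140 transcripts lower in both sample types were as bright in control guts, with a median of 10.72, above 61.49% of all transcripts. Of these, 105 of 140 (75%) exceeded the median transcript, so brightness in control guts was not particular to opposite movement. In control EBs 11 of the 63 were among the dimmest 10%, but only 2 were in Hey RNAi EBs. The gut differences ran from -3.62 to -0.80 (median -1.15) and the EB differences from 0.81 to 4.77 (median 1.43). At least 2-fold changes in both sample types were seen for 32 of the 63, and at least 4-fold changes in both for 4, against none of the 46.

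When each same-numbered pair of arrays had to move the same way, in place of no overlap between groups, 79 and 101 transcripts met the limits. This condition is looser, since groups that do not overlap also move the same way in every pair. It therefore had to keep all of the 46 and the 63, and the larger counts say nothing about pairing. The limits cut through a continuum. Just inside the limits, transcripts of the first set differed by 1.09 in guts and -0.83 in EBs and by 0.84 and -1.30. Those just outside differed by 0.80 and -2.29 and by 0.91 and -0.80. In the second set, those just inside differed by -0.80 and 2.90 and by -0.89 and 0.81. Those just outside it differed by -0.79 and 1.19 and by -0.79 and 1.18.

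By array, the control EBs were the most spread of the 4 groups. For the 46, the median level by array was 6.64, 6.67 and 7.03 in control guts and 7.89, 8.17 and 8.09 in Hey RNAi guts. It was 7.89, 8.76 and 7.54 in control EBs and 6.15, 6.08 and 6.05 in Hey RNAi EBs. The second control EB array stood highest of its group for 35 of the 46. For the 63, the array medians were 10.80, 10.89 and 10.59 in control guts, 9.26, 9.25 and 9.19 in Hey RNAi guts, 8.21, 6.86 and 7.86 in control EBs and 9.52, 9.47 and 9.69 in Hey RNAi EBs. Here the second control EB array was the lowest of its group for 39 of the 63, so in both sets it lay farthest from the Hey RNAi EBs. Without it, 40 and 63 transcripts met the limits, and 37 of the 46 and 60 of the 63 were kept. Whether EB purity had a part in this was not tested.

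**Figure D2:**
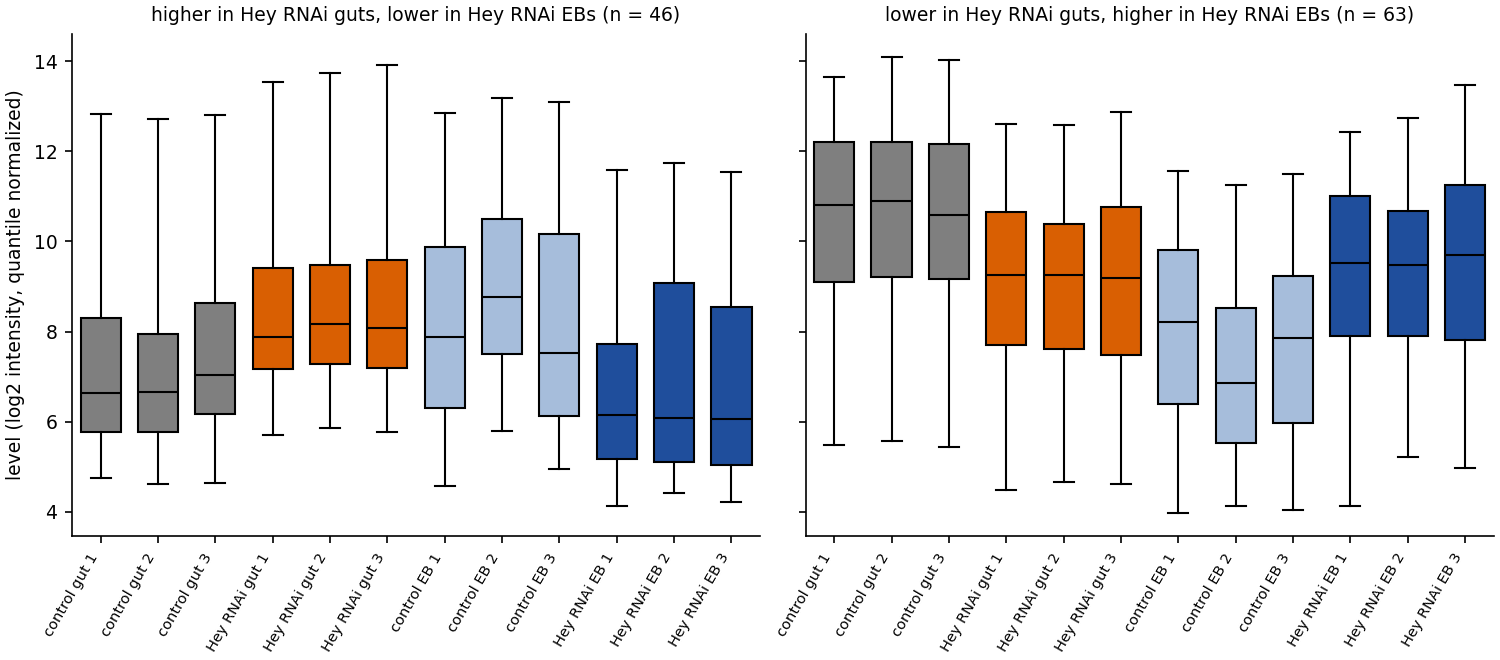
Boxes give the median and quartiles, and whiskers the lowest and highest level (log2 intensity, quantile normalized), of 46 and 63 transcripts in each of 12 arrays. In the left panel the medians of Hey RNAi EBs lie between 6.05 and 6.15, and in the right panel the second control EB array has the lowest median, 6.86.

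The median replicate spread of these transcripts was larger than that of all transcripts in guts and control EBs, and near it or smaller in Hey RNAi EBs. The median SD over 3 arrays was 0.30 in control guts, 0.26 in Hey RNAi guts, 0.46 in control EBs and 0.36 in Hey RNAi EBs for the 46, and 0.28, 0.22, 0.44 and 0.42 for the 63. All transcripts had medians of 0.19, 0.16, 0.35 and 0.41. In Hey RNAi EBs the SD of single transcripts reached 2.12 among the 46 and 1.83 among the 63, beside 4.27 among all transcripts. In control EBs it reached 1.29 among the 46 and 2.29 among the 63, beside 4.65 among all.

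Ranked by the smaller of the gut and EB differences, the first transcript higher in Hey RNAi guts was FBtr0087655. Its level was 5.74, 5.79 and 6.33 in control guts and 8.23, 8.20 and 7.34 in Hey RNAi guts. In EBs it was 7.10, 8.93 and 7.83 in controls and 5.21, 6.05 and 5.78 under RNAi. Every array of control guts and Hey RNAi EBs was below every array of control EBs and Hey RNAi guts. The means differed by 1.97 in guts (3.92-fold) and by -2.27 in EBs (4.84-fold). Control EBs (7.95 ± 0.93, SD, n = 3) and Hey RNAi guts (7.93 ± 0.50) were within 1 SD of each other, as were control guts (5.95 ± 0.33) and Hey RNAi EBs (5.68 ± 0.43).

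The next was FBtr0074389, at 6.00, 5.96 and 7.21 in control guts, 8.22, 7.87 and 9.97 in Hey RNAi guts, 7.29, 8.88 and 7.58 in control EBs and 6.05, 5.75 and 6.56 in Hey RNAi EBs. The third array was the highest in both gut groups, and the gut difference of 2.30 (4.92-fold) was 1.62 without the third Hey RNAi gut array. In EBs the means differed by -1.79 (3.47-fold), and both genotypes' arrays stayed apart.

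Among the transcripts lower in Hey RNAi guts, FBtr0087646 ranked first. Its gut levels were 11.77, 11.47 and 11.58 in controls and 8.31, 8.76 and 8.26 under RNAi, a difference of -3.17 (8.97-fold). In EBs they were 9.51, 5.45 and 9.31 in controls and 12.10, 10.27 and 11 under RNAi. One control EB array, the second, was far below the others, with a deposited intensity of 33.2 beside 604 and 684. The EB difference of 3.03 (8.18-fold) was 1.67 without it, and 3.79 and 3.65 without the first and the third control EB array.

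FBtr0070427 followed, at 12.17, 12.20 and 11.91 in control guts and 9.23, 8.86 and 8.80 in Hey RNAi guts, a difference of -3.13 (8.77-fold). Its EB levels were 8.77, 5.87 and 7.33 in controls and 10.08, 9.32 and 10.45 under RNAi, a difference of 2.63 (6.18-fold) that was 1.87 without the second control EB array and 3.43 without the first. Control guts were above every other array by more than 1 log2 unit, and Hey RNAi EBs lay between them and the Hey RNAi guts. In rank, the transcript moved from above 79.5% to above 46.5% of all transcripts in guts, and from above 33.3% to above 54.4% in EBs.

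**Figure D3:**
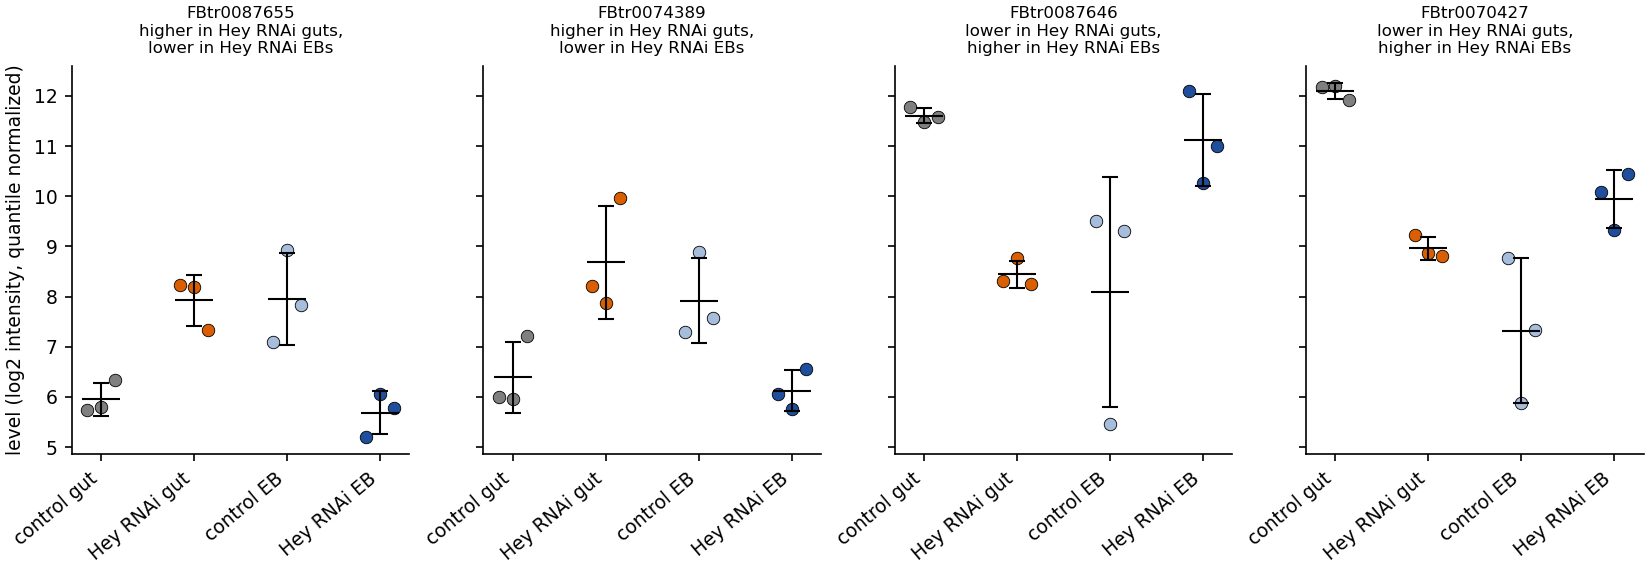
Points are the 3 arrays of each group for the 2 leading transcripts of each direction, and horizontal lines with bars are the mean and SD of the level (log2 intensity, quantile normalized). FBtr0087655 and FBtr0074389 are low in control guts and Hey RNAi EBs, while FBtr0087646 and FBtr0070427 are high there, with wide bars in control EBs.

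Side by side, control EBs and control guts mostly differed in one direction and Hey RNAi EBs and Hey RNAi guts in the other, the latter less often among the 63. These differences share arrays with those that chose the transcripts and are descriptions. Of the 46, 38 (82.6%) had a higher mean in control EBs than in control guts, and 41 (89.1%) a lower mean in Hey RNAi EBs than in Hey RNAi guts. The median EB minus gut difference was 1.06 in controls and -1.69 under RNAi, beside 0.21 and 0.19 for all transcripts. All control EB arrays lay above all control gut arrays for 29 (63.0%, with 35% of all transcripts), and all Hey RNAi EB arrays below all Hey RNAi gut arrays for 34 (73.9%, with 24.3% of all).

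For the 63, the control mean was lower in EBs than in guts for 60 (95.2%), with a median difference of -3.02, and the control EB arrays were all below the control gut arrays for 56 (88.9%, with 22.2% of all transcripts). Under RNAi the EB mean was the higher one for 40 (63.5%), with a median difference of 0.63. For all transcripts that median was 0.19, so most of them also had the higher mean in EBs. The Hey RNAi arrays of the 63 lay apart in that direction for 34 (54.0%, with 32.1% of all). The distance between EBs and guts was smaller under RNAi than in controls for 50 of the 63 (79.4%) and for 18 of the 46 (39.1%). It was smaller for 39.2% of the 286 transcripts higher in both sample types and for 42.1% of the 140 lower in both. For the 63, control EBs mostly lay below control guts, and the rule moves EBs up and guts down. Their high share is thus partly built in.

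The order of EBs and whole guts was turned under the knockdown for 33 of the 46 (71.7%) and 37 of the 63 (58.7%). Among transcripts that moved the same way in both sample types it was turned for 53 of 286 (18.5%) and 19 of 140 (13.6%). Opposite differences move that order by construction. The 33 had median levels of 6.51 in control guts, 7.77 in Hey RNAi guts, 7.95 in control EBs and 5.96 in Hey RNAi EBs. Of the other 13, 8 stayed lower in EBs than in guts in both genotypes and 5 stayed higher. The 37 had median levels of 10.28, 8.46, 7.68 and 9.75 in the same order of groups.

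A further 23 of the 63 stayed lower in EBs in both genotypes. Their medians were 11.30 in control guts, 9.65 in Hey RNAi guts, 7.61 in control EBs and 9.35 in Hey RNAi EBs, so the medians of both knockdown groups lay close to each other. The remaining 3 stayed higher in EBs.

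**Figure D4:**
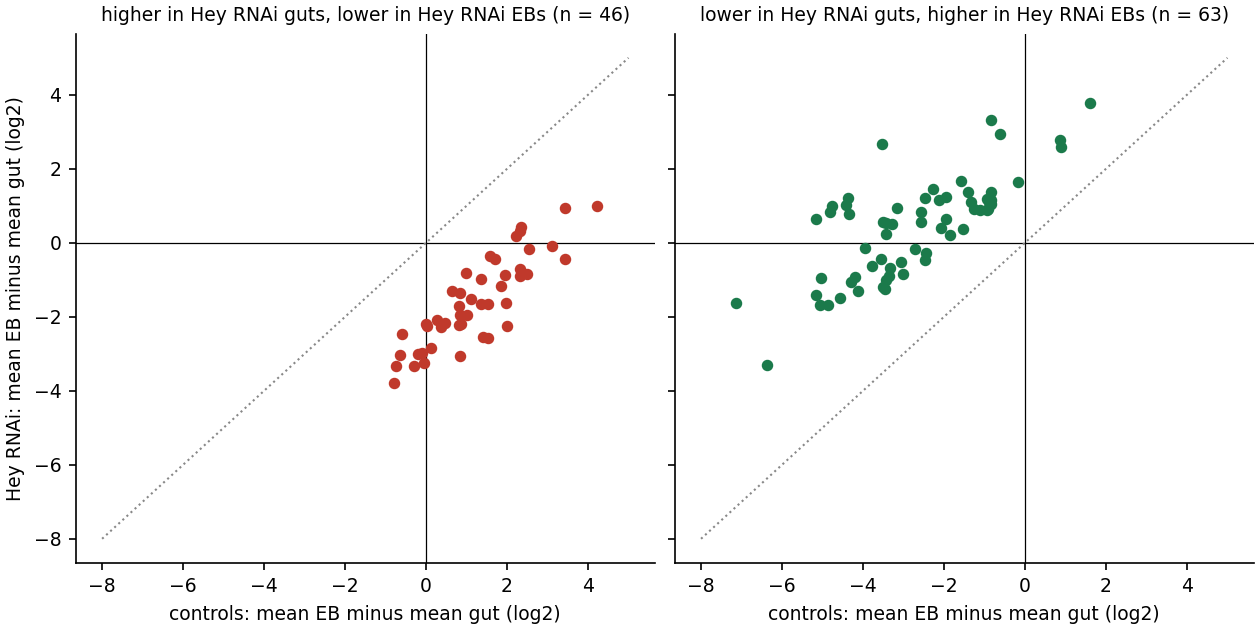
For each of 46 (left) and 63 (right) transcripts, the difference between the EB and gut means (log2) is plotted for controls on the x axis and for Hey RNAi on the y axis, and the dotted line marks equal differences. Points in the lower right (33, left panel) and upper left (37, right panel) quadrants changed the order of EBs and guts. The rule places all points on 1 side of the dotted line.

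The level under RNAi in one sample type was also set beside the control level of the other. The median difference between Hey RNAi guts and control EBs was 0.01 for the 46 and 1.35 for the 63, and that between Hey RNAi EBs and control guts was -0.29 and -1.02. Hey RNAi EBs were within 1 log2 unit of control guts for 21 of the 46 (45.7%) and 26 of the 63 (41.3%), against 62.3% of all transcripts. Hey RNAi guts were within 1 unit of control EBs for 24 (52.2%) and 26 (41.3%), against 68.9% of all.

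One contrast of these arrays was not used to choose the transcripts: the mean of all 6 EB arrays minus the mean of all 6 gut arrays. It is uncorrelated with the knockdown differences where the groups have equal spread. Here the median SD was larger in controls than under RNAi, as in EBs for the 46 (0.46 against 0.36). The same held in guts for the 63 (0.28 against 0.22). The contrast is thus not fully free of the choice. It was tested with limma over all 15473 transcripts. Of these, 2233 (14.4%) were at least 2-fold higher in EBs and 2288 (14.8%) at least 2-fold lower, with a Benjamini-Hochberg adjusted p under 0.05. Among the 63, 35 (55.6%) passed as lower in EBs and 5 (7.94%) as higher, and 23 did not pass. That share was close to the 51.1% lower among all 861 gut falls, and the 140 transcripts lower in both sample types had 47.1%. All 1626 EB rises, which met the EB condition whatever their change in guts, had 28.4% higher and 13.9% lower.

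Among the 46, 8 (17.4%) passed as higher in EBs and 12 (26.1%) as lower, and 26 did not pass. All 891 gut rises had 31.8% higher and 18.5% lower, and the 286 that rose in both sample types 40.9% and 7.69%. All 1834 EB falls had 11.4% higher and 20.5% lower, nearer to the 46. The excess of lower over higher calls among the 46 did not hold under every normalization, with 11 higher and 7 lower when arrays were centred on their medians, 9 and 9 on the deposited values and 10 and 9 when guts and EBs were normalized apart. Without the dimmest transcripts (1 in 3), 8 were higher and 5 lower. The median EB minus gut difference was -0.29 for the 46 and -1.40 for the 63, beside 0.22 for all transcripts. Of the 4 leading transcripts FBtr0070427 alone passed, lower in EBs by -1.89 ± 0.41 (SE, limma, adjusted p = 0.00254). FBtr0087655 differed by -0.12 ± 0.31 (adjusted p = 0.762 by limma), FBtr0074389 by -0.52 ± 0.42 (adjusted p = 0.312 by limma) and FBtr0087646 by -0.42 ± 0.63 (adjusted p = 0.597 by limma). Their EB and gut levels differed in each genotype but in opposite senses, which largely cancelled in the mean.

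**Figure D5:**
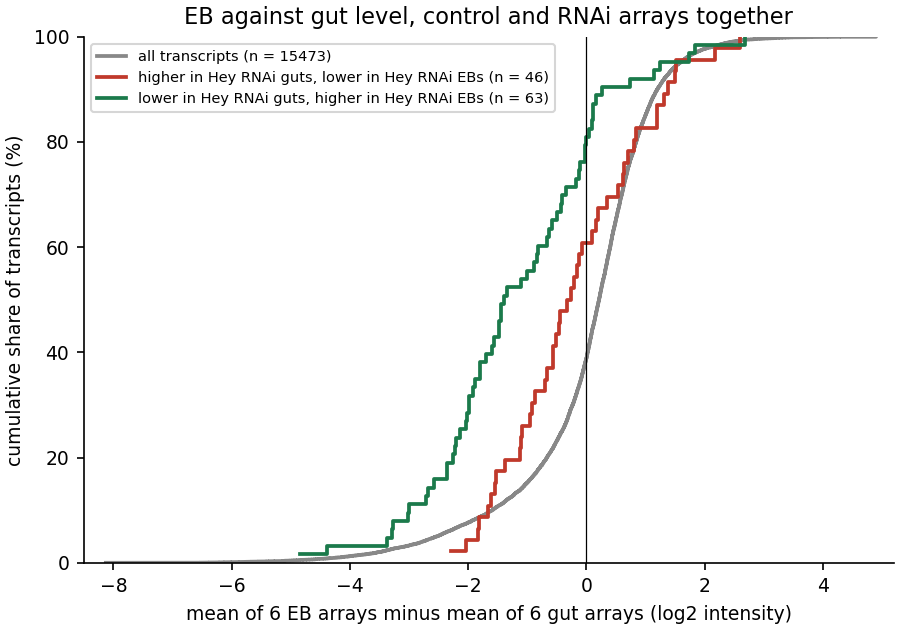
Curves give the cumulative share (%) of transcripts up to each difference between the mean of 6 EB arrays and the mean of 6 gut arrays (log2), for all 15473, for the 46 and for the 63. The curve of the 63 lies left of the others over most of its range, with a median of -1.40 beside -0.29 and 0.22.

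The 2 directions were also set beside the classes of transcripts that mark each sample type in this test, leaving out the 109. The 2241 transcripts lower in EBs had array medians of 11.52, 11.47 and 11.38 in control guts and 10.98, 10.97 and 11.03 in Hey RNAi guts, so this class was lower in every Hey RNAi gut array. In EBs it was at 9.05, 8.08 and 8.66 in controls and 7.70, 8.68 and 8.91 under RNAi, with overlapping groups. The 63 were chosen as higher in Hey RNAi EBs, so their own values cannot be read against this class. The 2220 higher in EBs had medians of 8.73 to 8.84 in control guts and 8.98 to 9.04 in Hey RNAi guts. They had medians of 10.32 to 10.53 in control EBs and 10.70 to 10.90 in Hey RNAi EBs. The part of a changed mixture of cells in the gut differences was not tested.

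The array means of the deposited intensities fell into 5 sets, which the labels do not name, and every set contained arrays of both genotypes, so that 3 pairs of gut arrays and 2 pairs of EB arrays could be compared within one set. Within sets, on deposited values, the median gut difference of the 46 was 1.04, 1.38 and 1.00, and that of the 63 was -1.21, -1.29 and -1.24. The EB pairs gave -0.54 and -1.59 for the 46, and 1.34 and 2.28 for the 63, beside 0.34 and 0.11 for all transcripts. In the first of these pairs 43 of the 46 were lower in the Hey RNAi EBs on the deposited values. The rule, which asked that no arrays overlap after normalization, fixes the direction of all these pairs apart from the effect of normalization.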

How the data were processed

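RNA of 12 samples (whole guts or bead-purified EBs, 3 per group) was amplified, given the Cy3 dye and measured on NimbleGen arrays, where each transcript has 4 probes of 60 nucleotides. The authors extracted the data in NimbleScan and normalized and tested them in ArrayStar, and the submitters' processing notes name RMA. Values in the deposited matrix are intensity values, 1 for a transcript on an array, read as linear from their range. Whether these values precede or follow that normalization is not given in the sources used here. The workbooks the authors deposited hold folds, p-values and t scores of their own comparisons, with group means for guts, and were not used.

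Intensities were log2 transformed and quantile normalized over all 12 arrays, which gives guts and EBs one distribution. No transcript was filtered out. Transcripts were chosen on differences of group means, and the members and the gene lists were chosen with earlier results of these data known. With limma 3.58.1 in R 4.3.3 (lmFit, eBayes), a mean was fitted for each group (8 residual and 2.6 prior degrees of freedom). All EBs were compared with all guts over 15473 transcripts, at a Benjamini-Hochberg adjusted p under 0.05 and at least 2-fold. Same-numbered control and Hey RNAi arrays were checked for pairing by the correlation of their deviations from the group means. It was 0.127 to 0.321 in EBs, where each pair thus exceeded 0.1, 0.00482 to 0.256 in guts and -0.106 to 0.164 between guts and EBs. The labels give no shared batch for a number. The scripts were tested on simulated data.

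Named by rule were members with a symbol (none) and, of the others, the 2 per direction with the largest smaller absolute difference. Of the gene lists, the progenitor markers had 1 of 14 genes paired (LanA, no member). The Hey and Notch pathway (18 genes), nuclear lamina (9), EC (24), enteroendocrine (13), muscle (9), trachea, fat body and blood cell (12), cell cycle and DNA repair (16) and ribosome (7) lists had 0 paired. Array number limits the precision. Alternatives were other normalizations, limits and filters, blocks and arrays left out.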

Additional observations from a re-analysis of the deposited data

Results flagged for a closer look

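Both sets meet the criterion that every array of Hey RNAi guts lies to one side of the controls and every array of Hey RNAi EBs to the other: 46 transcripts were higher in guts and lower in EBs, and 63 were lower in guts and higher in EBs. The difference between the 2 knockdown effects was not tested, since the transcripts were chosen for it on these arrays.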

How the results depend on the processing

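The 46 and 63 transcripts kept their signs in both sample types under every normalization tried, but the counts past the limits moved. Kept signs say little here, since the transcripts were chosen for differences of at least 0.8 on the same arrays. The condition on overlap fixes these signs when 1 array is left out. On the deposited values with no further normalization 28 and 60 transcripts met the rule, 20 and 40 of them shared with the 46 and the 63. With limits of 0.6 the counts were 116 and 120, with limits of 1 they were 23 and 32, and with no condition on overlap 104 and 165. With the dimmest transcripts (1 in 3) left out they were 24 and 50. With same-numbered arrays paired, so that every pair had to move in the direction of the mean in place of no overlap, the counts were 79 and 101. That condition is looser than no overlap, so these counts could not be smaller than 46 and 63. Leaving out 1 array in turn gave 40 to 83 and 63 to 128. Leaving out control EB 1 gave 83 and 128, leaving out control gut 3 gave 78 for the first set, and leaving out Hey RNAi EB 2 gave 73 for it. Fewer arrays make the overlap condition easier to meet. The number of the 109 that passed between EBs and guts, 60, stayed between 57 and 61 with 1 array left out. It was 60 with replicate number as a replicate block in the fit. Another centring moved the split over all transcripts from 2233 higher and 2288 lower in EBs to 4209 and 1934 with arrays centred on their medians, and to 1377 and 2651 with cyclic loess. The 46 then had 11 higher and 7 lower, and 5 and 15, with 9 and 9 on deposited values, 10 and 9 normalized within each tissue and 8 and 5 without the dimmest transcripts. The median of all transcripts was 0.22, 0.57 and 0.03 in these fits, while the 63 had 33 and 38 lower. The difference between EBs and guts changed sign, without passing, for FBtr0087655 (0.12 on deposited values, 0.28 centred on medians, 0.19 normalized within each tissue, 0.10 without control EB 1), for FBtr0087646 (0.23 without control EB 2, 0.08 with intensity sets as a block) and for FBtr0074389 (0.06 with that block). With 1 array left out in turn, it ran from -0.37 to 0.10 for FBtr0087655 and from -0.79 to 0.23 for FBtr0087646. The cause of these moves was not tested. In Hey RNAi EBs 14 of the 46 were among the dimmest 10% of transcripts. Whether this limited their EB differences was not tested.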
